A study of Mus musculus with 12 samples.

Results

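Expression of 9 genes of ADP-ribosylation was followed in Myc-CaP cells treated with Oxali, IFNγ or both. The genes were Parp1, Parp2 and Parp3, which act on damaged DNA, and the interferon-inducible genes Parp9, Parp10, Parp11, Parp12, Parp14 and Dtx3l. They were taken by symbol from a table of 55216 genes, in which all 9 had a row. Of the 9, 8 passed the filter on low counts together with 13169 other genes, 13177 in all, and Parp12 did not. Myc-CaP is an established prostate cancer cell line from a male FVB/NJ mouse that overexpresses Myc, and all 12 libraries of poly(A) RNA come from this line at 48 h. The 6 groups hold 2 libraries each. Ctrl received no agent, Oxali received oxaliplatin (a platinum drug that crosslinks DNA) at 2 μM, and IFN200 and IFN2000 received IFNγ at 200 and 2000 pg, a dose labelled without a volume. Combo200 and Combo2000 received Oxali at 2 μM together with IFNγ at 200 or 2000 pg.

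For the single treatments the titles of the libraries disagree with their agent labels. The pair titled IFN200 is labelled with the agent Oxali, the pair titled IFN2000 with IFNγ at 200 pg, and the pair titled Oxali with IFNγ at 2000 pg. The titles were used. Averaged over 18 p53 target genes, the log2 ratio to Ctrl came to 0.61 and 0.55 with the title Oxali and between -0.04 and 0.05 in the 4 titled for IFNγ alone. In the libraries of both combinations it lay between 0.59 and 0.63. If the agent labels were right, the 3 single treatments would exchange names in everything that follows, while Ctrl and both combinations would stay as they are. Nothing in the labels says that partner libraries came from separate cultures, so the p-values measure the spread between these libraries, which may be technical.

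Library totals ran from 18749975 to 25931516 counts. Levels are given as CPM, counts scaled by TMM to a common library total, and 3 counts correspond to 0.111 to 0.167 CPM, a limit that covers counting error only. Of the epithelial markers read, Krt8 had 353 to 628 counts and Epcam 0 in every library. Library 2 of IFN2000 stood apart: 8 T cell markers summed to 246 counts there, 117 of them Ifng, against 8 to 71 in the other libraries, with Cd8a at 0 in it and Ptprc, a leukocyte gene, at 64. Library 1 of IFN200 held 163 counts of 5 heart muscle markers, against 15 to 129 elsewhere. Actc1 had 63 counts there and 0 to 2 elsewhere, Myh6 28 and 0 to 4, and Myl2 22 and 0 to 1. Tnnt2 had 47 there and 15 to 125 elsewhere, and Nppa 3 and 0 to 4. Macrophage and other leukocyte markers summed to 10 to 86 counts, with the 86 in library 2 of IFN2000 made up chiefly of Ptprc, and fibroblast markers, chiefly Pdgfra, to 223 to 635. The part of these cells in the results below was not tested. The log2 ratio to Ctrl also fell with gene length in both IFN2000 libraries (Spearman correlation across genes -0.30 and -0.16) and lay between 0.03 and 0.15 in the other treated libraries. Members' log2 fold changes in comparisons that use IFN2000 are therefore also given without library 2 where they were called.

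PARP enzymes use NAD+ to attach ADP-ribose to proteins and nucleic acids. PARP1 and PARP2 bind DNA strand breaks and build chains of ADP-ribose that recruit repair proteins, and PARP3 attaches single units and takes part in the repair of double-strand breaks. PARP10, PARP11, PARP12 and PARP14 are mono-ADP-ribosylating enzymes that are best known as products of interferon-stimulated genes. PARP9 carries macrodomains that bind ADP-ribose and works as a heterodimer with DTX3L, a ubiquitin ligase of the deltex family. Genes induced by IFNγ often carry GAS elements (gamma-activated sequences) or repeats of GAAA, to which IRF factors bind.

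Promoter sequence (from 250 bases before to 50 bases after the gene start) was read from RefSeq on GRCm38.p6. Windows for 6 members were found, and Parp9, Parp10 and Parp14 had none in the table used. The 4 motifs searched on both strands were GAS (TTCNNNGAA), IRF (GAAA, any 2 bases, GAAA), the GC box (GGGCGG) and the kappaB motif, and capitals mark every match. Shown are 2 promoters of genes that moved in opposite directions, Parp11 (window chr6:127446590-127446889, plus strand) and Parp1 (chr1:180568641-180568940, plus strand). Of the member windows found, this Parp11 window was the only one with a GAS or IRF match.
Parp11: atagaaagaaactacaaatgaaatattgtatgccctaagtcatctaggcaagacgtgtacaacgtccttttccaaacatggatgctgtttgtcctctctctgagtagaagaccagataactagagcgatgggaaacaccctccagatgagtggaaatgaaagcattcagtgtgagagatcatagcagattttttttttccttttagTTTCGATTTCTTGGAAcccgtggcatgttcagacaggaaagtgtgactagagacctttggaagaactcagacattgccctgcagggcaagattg
Parp1: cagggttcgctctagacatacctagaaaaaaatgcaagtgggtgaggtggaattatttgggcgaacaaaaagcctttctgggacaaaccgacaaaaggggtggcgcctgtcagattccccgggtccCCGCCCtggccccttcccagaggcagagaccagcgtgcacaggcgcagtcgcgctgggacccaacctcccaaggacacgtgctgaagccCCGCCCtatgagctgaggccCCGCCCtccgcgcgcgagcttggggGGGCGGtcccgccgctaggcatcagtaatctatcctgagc
In the Parp11 window an IRF match began 44 bases before the start (TTTCGATTTC, the reverse strand) and overlapped a GAS match that began 37 bases before it (TTCTTGGAA). Among 32851 promoter windows, 3.44% held an IRF match, 8.3% a GAS match, 0.454% both, and 8.46% a kappaB match, which no member window held. The Parp1 window held 4 GC boxes, at positions -124, -35, -15 and 11 from the start, and neither a GAS nor an IRF match, where 35.7% of all windows held a GC box. A further Parp11 window at chr6:127453377-127453676, a separate RefSeq start, had 1 GC box and no other match, as did the Parp2 window. The windows of Parp3, Parp12 and Dtx3l held none of the 4 motifs. Parp3 and Dtx3l rose in Combo2000 against Ctrl, by 0.97 and 1.64 on the log2 scale, and Parp11 was not called with IFNγ alone. The Dtx3l window covers 300 bases, and the sequence at the start of Parp9, 681 bases away, was not read. Motifs outside the windows would have been missed. These matches describe the letters in the windows and were not tested against binding.

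Parp1, whose product senses strand breaks, was the most abundant member and the only one that fell. The Ctrl libraries held 381 and 397 CPM, those of IFN200 383 and 381, and those of IFN2000 383 and 399. With Oxali alone Parp1 stood at 275 and 275 CPM, and with Oxali plus IFNγ at 268 and 267 (200 pg) and 268 and 260 (2000 pg). Every library titled with Oxali lay below every library without it, where 32.8% of all genes were called lower in Oxali against Ctrl. The share of all genes whose libraries separated without overlap was not counted, here or for the members below. Parp1 (chr1:180568924-180601254, GRCm38, plus strand) fell by 0.50 on the log2 scale in Oxali against Ctrl (SE 0.04, edgeR adjusted p 4.03e-10), by 0.54 in Combo200 and by 0.56 in Combo2000. IFNγ without Oxali changed it by -0.03 (95% interval -0.10 to 0.05) at 200 pg and 0.01 (-0.07 to 0.08) at 2000 pg, and neither passed the test. In bulk RNA, fewer cells of a kind and less RNA per cell cannot be told apart.

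Parp2, the close relative of Parp1, stayed near its control level. Ctrl held 61.4 and 58.1 CPM, Oxali 63.6 and 68.0, and Combo2000 62.4 and 67.7, with the remaining libraries between 59.9 and 64.5. Its log2 fold changes of 0.14 in Oxali (SE 0.05, edgeR adjusted p 0.023) and 0.12 in Combo2000 (SE 0.05, edgeR adjusted p 0.041) passed the test narrowly. DESeq2 called neither, at adjusted p 0.0825 and 0.147, and each call was lost without Ctrl library 2 (0.10 and 0.08). The calls were also lost without Oxali library 2 (0.09) and Combo2000 library 3 (0.06).

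Parp3 rose with both agents. Ctrl libraries held 24.1 and 29.0 CPM, IFN200 libraries 27.7 and 29.7, IFN2000 libraries 36.9 and 33.0, and Oxali libraries 36.8 and 36.7. The combinations reached 44.4 and 42.5 CPM in Combo200 and 52.5 and 52.0 in Combo2000, above all other libraries. Against Ctrl, Parp3 (chr9:106470322-106476949, minus strand) rose by 0.39 on the log2 scale in IFN2000 (SE 0.07, edgeR adjusted p 1.33e-03), by 0.46 in Oxali (SE 0.07, edgeR adjusted p 1.68e-05) and by 0.97 in Combo2000 (SE 0.07, edgeR adjusted p 2.05e-10). The rise in IFN2000 was 0.31 without library 2 and narrowly missed the threshold without Ctrl library 1 (0.28, adjusted p 0.0512). Parp3 shares 20 exonic bases with Rrp9 on the opposite strand. Whether the counting used strand is not given in the sources used here.

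**Figure D1:**
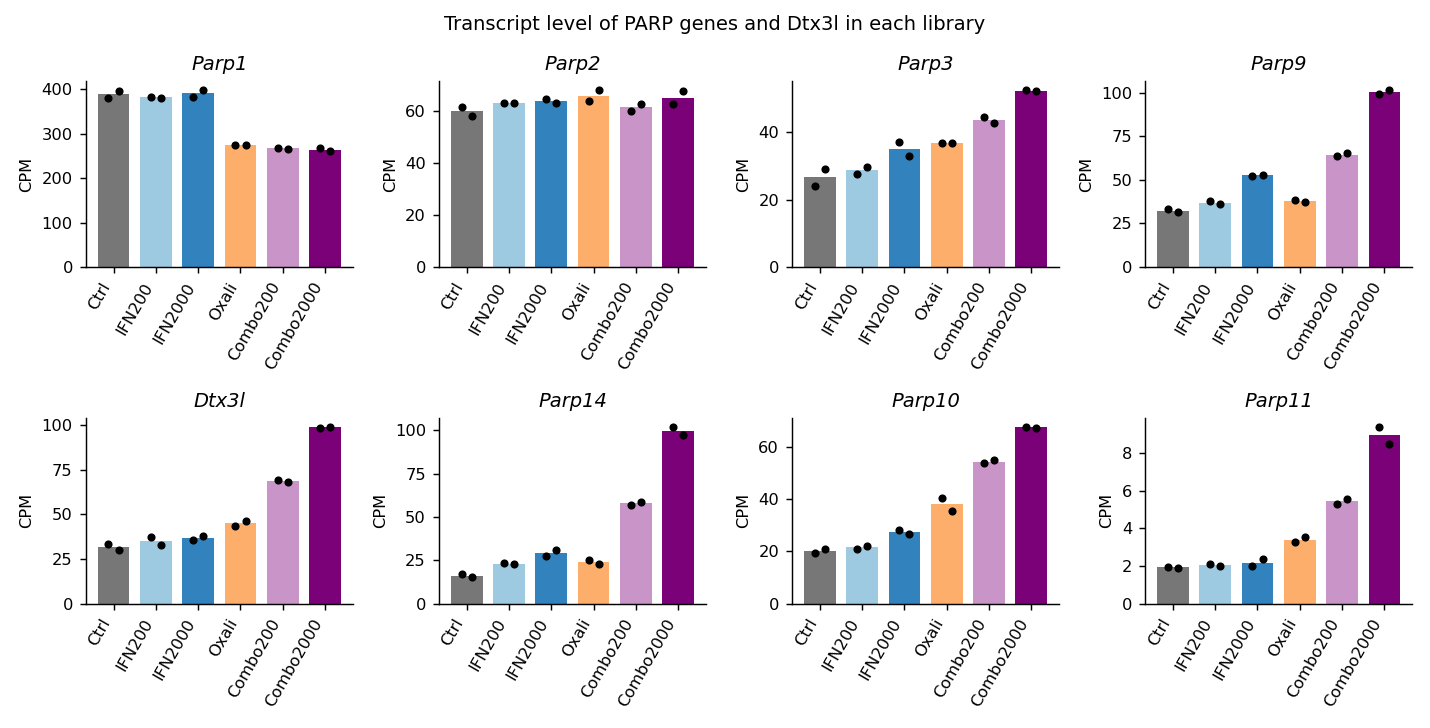
Level of the 8 members tested in each treatment group, in CPM on linear axes that start at 0 and differ between genes. Bars are group means and points the 2 libraries of each group. Parp1 drops in the 3 groups with Oxali, Parp2 stays between 58.1 and 68.0 CPM, and the other 6 genes are highest in Combo2000.

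Parp14, the macrodomain PARP known as a partner of STAT6 signalling, was the member that rose most in Combo200 and Combo2000 against Ctrl. It stood at 17.1 and 15.5 CPM in Ctrl, rose with IFNγ alone to 23.3 and 23.0 (200 pg) and to 27.7 and 30.9 (2000 pg), and with Oxali alone reached 25.3 and 23.1. Combo200 reached 57.0 and 58.9 CPM and Combo2000 102 and 97.1. No library of either combination overlapped those of a single treatment. Parp14 (chr16:35832874-35871544, minus strand) rose on the log2 scale by 0.85 with IFN2000 (SE 0.08; 0.93 without library 2) and by 0.57 with Oxali (SE 0.08). Both together raised it by 1.83 at 200 pg (SE 0.07) and by 2.61 at 2000 pg (SE 0.06, edgeR adjusted p 1.92e-17), the latter a mean of 99.7 ± 3.63 CPM against 16.3 ± 1.15 in Ctrl (SD, n = 2), or 6.11-fold. It was also the only member called in IFN200, with a log2 fold change of 0.51 (SE 0.08, edgeR adjusted p 7.24e-03), where 0.114% of the genes tested were called. That call was lost without Ctrl library 2 (0.43, adjusted p 0.297) or IFN200 library 1 (0.50, adjusted p 0.126).

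Parp9 and Dtx3l encode the partners of one heterodimer. Parp9 had 33.1 and 31.6 CPM in Ctrl, with 37.6 and 36.4 after the low and 52.1 and 52.9 after the high dose of IFNγ, and 38.5 and 37.6 after Oxali. It reached 63.7 and 65.2 CPM in Combo200 and 99.3 and 102 in Combo2000. Among the single treatments its level was highest in IFN2000, where it rose by 0.70 on the log2 scale (SE 0.05, edgeR adjusted p 7.38e-09; 0.71 without library 2), against 0.24 in Oxali (SE 0.05, edgeR adjusted p 5.67e-04).

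Dtx3l had 33.2 and 30.2 CPM in Ctrl, with 37.1 and 33.1 after the low and 35.5 and 38.0 after the high dose of IFNγ, and 43.7 and 46.0 after Oxali. It rose further to 69.4 and 68.2 CPM in Combo200 and to 98.0 and 99.0 in Combo2000. The order of the single treatments was the other way round than for Parp9: the log2 fold change was 0.51 in Oxali (SE 0.06, edgeR adjusted p 6.69e-07) and 0.22 in IFN2000 (SE 0.06, edgeR adjusted p 0.0251). The IFN2000 value was 0.27 without its library 2 and was no longer called without Ctrl library 2 (0.15) or IFN2000 library 3 (0.19). In the direct comparison of Oxali with IFN2000, Parp9 was lower in Oxali by 0.46 on the log2 scale (SE 0.05, edgeR adjusted p 3.38e-08) and Dtx3l higher by 0.29 (SE 0.06, edgeR adjusted p 2.45e-04), where 33.9% of all genes were called lower and 37.1% higher. Without IFN2000 library 2 these differences were -0.48 and 0.24, and both stayed called. In Combo2000 the pair met at the same rise of 1.64 (SE 0.05 for Parp9, 0.06 for Dtx3l).

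Per kilobase of exon, a scale that allows levels of different genes to be compared, Parp9 stood at 1.17 and 1.23 times the level of Dtx3l in Ctrl. That ratio was 1.19 and 1.29 in IFN200 but 1.73 and 1.63 in IFN2000. It was 1.04 and 0.96 in Oxali, and in the combinations 1.08 and 1.12 (200 pg) and 1.19 and 1.20 (2000 pg). The libraries of IFN2000 lay above, and those of Oxali below, all libraries of the other groups, and no test of the ratio itself was made. The genes start 681 bases apart on opposite strands and share 458 exonic bases, so reads from that overlap could be counted for either gene if strand was not used.

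Parp10, a mono-ADP-ribosylating enzyme, responded to Oxali more than to IFNγ alone. Without Oxali its libraries held 19.3 and 20.9 CPM (Ctrl), 21.1 and 21.9 (IFN200), and 28.2 and 26.6 (IFN2000). With Oxali they held 40.5 and 35.5 CPM alone, 53.6 and 55.0 with IFNγ at 200 pg, and 67.6 and 67.0 at 2000 pg. All 6 libraries with Oxali lay above the 6 without, where 34.8% of all genes were called higher in Oxali against Ctrl. Parp10 (chr15:76231174-76243441, minus strand) rose by 0.92 on the log2 scale in Oxali (SE 0.07, edgeR adjusted p 5.62e-10) and by 0.45 in IFN2000 (SE 0.07, edgeR adjusted p 3.75e-04; 0.41 without library 2), and Oxali exceeded IFN2000 by 0.47 (SE 0.06, edgeR adjusted p 1.69e-06; 0.51 without library 2). It rose by 1.74 in Combo2000 (SE 0.06, edgeR adjusted p 7.01e-15). Parp10 shares 205 exonic bases with Plec, a far more abundant gene on the same strand with 89017 counts over all libraries, so its counts carry that uncertainty.

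Parp11, a mono-ADP-ribosylating enzyme of the nuclear envelope, was the rarest member that could be tested. Its Ctrl libraries had 35 and 38 counts, or 1.95 and 1.93 CPM, and IFNγ alone gave 2.13 and 1.99 CPM at the low and 2.01 and 2.37 at the high dose. Oxali alone gave 3.27 and 3.53 CPM. Combo200 held 5.32 and 5.57 CPM, and Combo2000 9.41 and 8.49 (254 and 197 counts). Against Ctrl, Parp11 (chr6:127446840-127494261, plus strand) rose by 0.81 on the log2 scale in Oxali (SE 0.18, edgeR adjusted p 6.10e-04) and by 2.21 in Combo2000 (SE 0.15, edgeR adjusted p 7.43e-11). IFNγ alone did not pass the test at either dose, and the 95% interval at 2000 pg, -0.24 to 0.59, was wide. The promoter printed above is that of the start at the 5′ end of the gene.

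Parp12, a zinc finger PARP and a classical interferon-stimulated gene, was near 0 throughout. It had 1 count in all 12 libraries together, in Combo2000 library 3, against a limit of 3 counts per library, so no change with treatment was detectable at this depth. Of the other genes within 200 kb of its start, chosen after the values were seen, only Kdm7a had more than 1 count, with 2541 over all libraries.

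**Figure D2:**
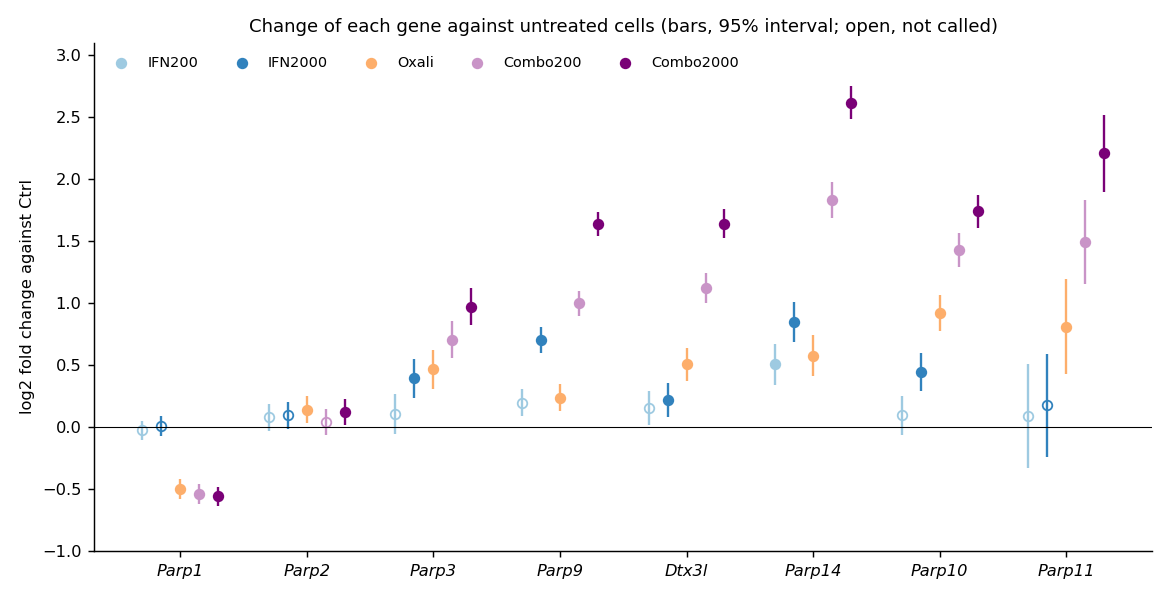
log2 fold change against Ctrl of the 8 members tested, with 95% intervals as bars, for each of the 5 treatments. Open points were not called. Parp1 lies below 0 in the 3 treatments with Oxali, and Parp14 reaches 2.61 in Combo2000.

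Read as groups, all 5 interferon genes tested were called higher in Oxali, Combo200 and Combo2000 against Ctrl, and 4 of 5 in IFN2000. The share of all genes called higher in those comparisons was 34.8%, 35.6%, 35.7% and 8.39%. Their median log2 fold change was 0.57 in Oxali, 1.43 in Combo200, 1.74 in Combo2000 and 0.45 in IFN2000, beside 0.02 or less over all genes tested. Of the 3 damage genes, Parp1 was called lower in Oxali (32.8% of all genes were) and in both combinations (33.1% and 33.5%). Parp3 was called higher in all 3 and in IFN2000, and Parp2 narrowly in Oxali and Combo2000. The median log2 fold change of the damage genes was 0.14 in Oxali, 0.04 in Combo200, 0.12 in Combo2000 and 0.09 in IFN2000. Because about 2 in 3 genes were called in either direction in Oxali (67.6%), Combo200 (68.7%) and Combo2000 (69.2%), the calls there set the members little apart, and the sizes carry the description.

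IFNγ added to Oxali moved a small share of all genes. In Combo2000 against Oxali, 6 of the 8 members were called higher where 3.37% of all genes were: Parp14 by 2.04 on the log2 scale (SE 0.06), Parp9 by 1.40 (SE 0.04), Parp11 by 1.40 (SE 0.13), Dtx3l by 1.13 (SE 0.05), Parp10 by 0.82 (SE 0.06) and Parp3 by 0.51 (SE 0.06). In Combo200 against Oxali the same genes except Parp3 were called higher where 1.58% of all genes were, from 0.51 for Parp10 to 1.26 for Parp14. The call of Parp11 there (0.68) was lost with DESeq2 (adjusted p 0.164), without either Oxali library (0.63 and 0.74) and without Combo200 library 3 (0.65). Parp1 and Parp2 were not called at either dose. Raising the dose in the presence of Oxali, Combo2000 against Combo200, raised Parp14 by 0.78, Parp11 by 0.72, Parp9 by 0.64, Dtx3l by 0.52, Parp10 by 0.31 and Parp3 by 0.27, in a comparison that called 1.21% of all genes higher. The value of Parp3 rested on every library: leaving out any 1 of the 4 ended its call.

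Without Oxali, IFN2000 against IFN200, the dose step raised Parp9 by 0.50 on the log2 scale (SE 0.05), Parp10 by 0.35 (SE 0.07), Parp14 by 0.34 (SE 0.07) and Parp3 by 0.29 (SE 0.07), where 11.3% of all genes were called higher. Without IFN2000 library 2 these values were 0.52, 0.31, 0.42 and 0.20, and Parp3 was no longer called (adjusted p 0.123), nor was it without IFN200 library 1 (0.23, adjusted p 0.0987). Dtx3l and Parp11 were not called in this step.

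Oxali added to IFNγ gave the converse view. In Combo2000 against IFN2000, 6 members were called higher, where 38.5% of all genes were, led by Parp11 at 2.03 (SE 0.14), Parp14 at 1.77 (SE 0.06), Dtx3l at 1.42 (SE 0.05) and Parp10 at 1.29 (SE 0.06). Parp9 rose by 0.93 (SE 0.04) and Parp3 by 0.58 (SE 0.06), and Parp1 fell by 0.57 (SE 0.04), in a comparison that called 33.8% of all genes lower. Without IFN2000 library 2 the rises were 1.91, 1.68, 1.37, 1.33, 0.92 and 0.65 in the same order of genes and the fall of Parp1 was 0.60, all still called. In Combo200 against IFN200 the same 6 rose, from 0.60 for Parp3 to 1.40 for Parp11, and Parp1 fell by 0.52, where 36.5% of all genes were called higher and 33.5% lower. Parp2 was not called in either comparison.

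Whether IFNγ acts differently when Oxali is present was tested as an interaction on the log2 scale: the change from Oxali to the combination minus the change from Ctrl to IFNγ alone. At 2000 pg all 5 interferon genes tested were called higher, where 2.12% of all genes were (280 higher and 79 lower, or 216 and 150 with upper-quartile scaling). The interaction was 1.19 for Parp14 (SE 0.10, edgeR adjusted p 3.07e-07), 0.92 for Dtx3l (SE 0.08, edgeR adjusted p 1.33e-06) and 0.70 for Parp9 (SE 0.07, edgeR adjusted p 2.21e-06). For Parp11 it was 1.22 (SE 0.24, edgeR adjusted p 7.65e-03) and for Parp10 0.38 (SE 0.09, edgeR adjusted p 0.0317). Both were the less firm calls. Parp11 missed the threshold without either Ctrl library (adjusted p 0.0657 and 0.0525), and Parp10 missed it with DESeq2 (adjusted p 0.114) and when any 1 of 6 of the 8 libraries involved was left out. Without IFN2000 library 2 the 5 values were 1.11, 0.86, 0.68, 1.11 and 0.41 in the same order of genes, and all stayed called.

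At 200 pg the interaction was called for 4 of the 5, where 0.562% of all genes were called higher (74 higher and 18 lower, or 57 and 24 with upper-quartile scaling). It was 0.75 for Parp14 (SE 0.10, edgeR adjusted p 2.86e-04), 0.57 for Parp9 (SE 0.07, edgeR adjusted p 1.10e-04) and 0.47 for Dtx3l (SE 0.08, edgeR adjusted p 9.30e-03). The call of Dtx3l was lost without Ctrl library 1 (0.39). Parp10, at 0.42 (SE 0.10, edgeR adjusted p 0.0453), lost its call under RLE and upper-quartile scaling, with DESeq2 (adjusted p 0.140) and when any 1 of 7 of the 8 libraries involved was left out. Parp11, at 0.59 with a 95% interval from 0.08 to 1.11, did not pass the test across all genes (adjusted p 0.426).

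None of the damage genes had a called interaction at either dose. Of all genes, 2.12% were called higher at 2000 pg and 0.562% at 200 pg, so the lack of a call sets them little apart. At 2000 pg the value was -0.06 for Parp1 (95% interval -0.17 to 0.05), -0.11 for Parp2 (-0.26 to 0.04) and 0.11 for Parp3 (-0.09 to 0.32). At 200 pg the value furthest from 0 was that of Parp2, -0.18 (-0.33 to -0.03, adjusted p 0.400). At the higher dose the interval of Parp1 lay wholly below the interaction of every interferon gene, and that of Parp3 reached into the interval of Parp10 (0.18 to 0.57). The difference between genes was not tested.

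**Figure D3:**
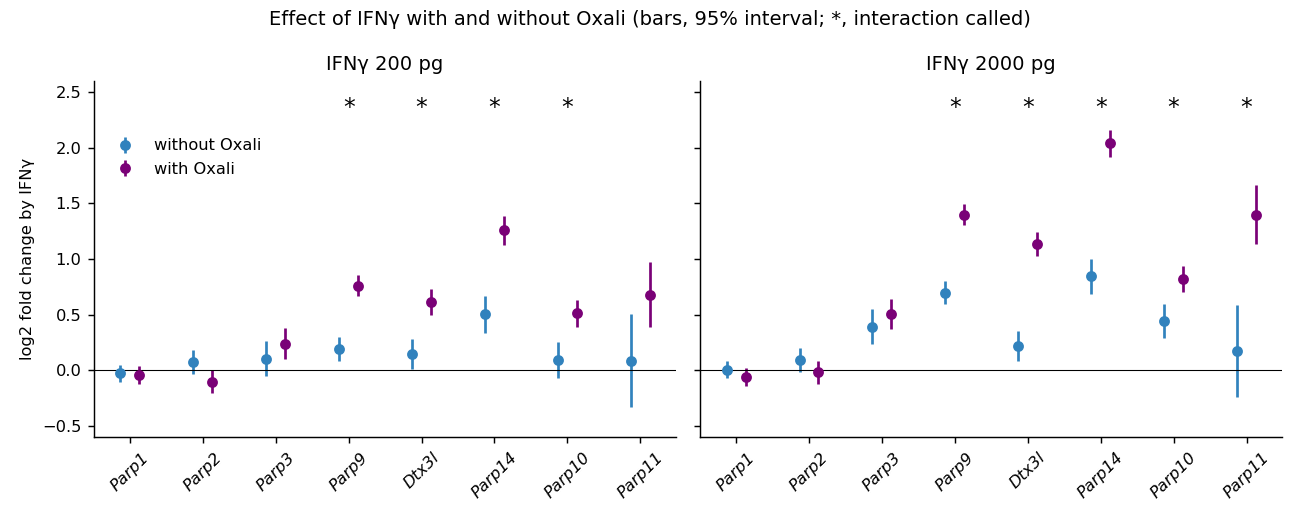
log2 fold change on adding IFNγ at 200 pg (left) or 2000 pg (right) to untreated cells (blue) or to cells with Oxali (purple), with 95% intervals. The distance between paired points is the interaction, and an asterisk marks those called, 4 at 200 pg and 5 at 2000 pg. Parp14 moves by 0.85 without and 2.04 with Oxali at 2000 pg, whereas the points of Parp1 lie near 0 in both.

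The log2 interaction compares factors, so the same question was asked on the CPM scale. There, the sum of the single effects was added to Ctrl and subtracted from each combination library. Parp14 exceeded that sum by 62.5 CPM on average in Combo2000 (59.9 and 65.0), Dtx3l by 48.5, Parp9 by 42.2, Parp10 by 22.0 and Parp11 by 5.30. In Combo200 the excess was 26.9 CPM for Parp14, 21.8 for Parp9, 20.5 for Dtx3l, 14.9 for Parp10 and 1.92 for Parp11. Parp3 lay above the sum as well, by 7.08 CPM in Combo2000 and 4.56 in Combo200, although its log2 interaction was not called at either dose. Parp1 and Parp2 lay below the sum in every combination library. For Parp1 the differences were -1.04 and -0.48 CPM in Combo200 and -16.6 and -9.02 in Combo2000, beside Ctrl libraries at 381 and 397 CPM. For Parp2 they were -9.12 and -6.32 CPM in Combo200 and -7.35 and -2.10 in Combo2000. These differences are a description with no test.

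Ordered by level, the members fell into distinct sequences. For Parp14 the order was Ctrl, IFN200, Oxali, IFN2000, Combo200 and Combo2000, and every neighbouring step was called except IFN200 to Oxali. For Parp9 the same order held, but the neighbouring steps from Ctrl to IFN200 and from IFN200 to Oxali were not called, although Oxali against Ctrl was. For Parp10 the order was Ctrl, IFN200, IFN2000, Oxali, Combo200 and Combo2000, with every step but the lowest called. Parp11 and Dtx3l followed the order of Parp10, without a called neighbouring step from Ctrl to IFN200 or from IFN200 to IFN2000. For Dtx3l, IFN2000 against Ctrl was called. IFN2000 stood above Oxali for Parp14 and Parp9, both called, and below it for Parp10, Parp11 and Dtx3l, all called. Those 5 calls stayed without IFN2000 library 2, where Oxali against IFN2000 was -0.36 for Parp14 and 0.52 for Parp11. For Parp2 no neighbouring step was called, and for Parp1 the only called step was the one from Oxali to IFN200. Parp3 had called steps from IFN200 to IFN2000 and from Combo200 to Combo2000. The comparisons used here and nowhere else, Oxali against IFN200 and Combo200 against IFN2000, called 35.3% and 38.3% of all genes higher.

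The make-up of the set changed with these moves. Per kilobase of exon, the 9 genes summed to 115 and 118 CPM per kb in Ctrl and 108 and 108 after Oxali. The combinations held 124 and 125 (200 pg) and 148 and 147 (2000 pg). Parp1 made up 62.8% and 63.9% of that sum in Ctrl, 57.0% and 58.4% after IFN2000, 48.3% and 48.2% after Oxali, and 34.3% and 33.4% in Combo2000. The interferon genes together made up 16.8% and 15.8% in Ctrl, 21.1% and 21.2% after IFN2000, and 26.2% and 25.1% after Oxali. Their share was 36.1% and 36.4% in Combo200 and 44.5% and 44.4% in Combo2000. Their largest single gene per kilobase in Combo2000 was Parp9, at 20.6 ± 0.323 CPM per kb (SD, n = 2), followed by Dtx3l at 17.2 ± 0.122, Parp10 at 15.7 ± 0.103 and Parp14 at 10.7 ± 0.39. Parp14 reached 0.54 and 0.50 of the level of Parp9 in Combo2000, from 0.27 and 0.26 in Ctrl.

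**Figure D4:**
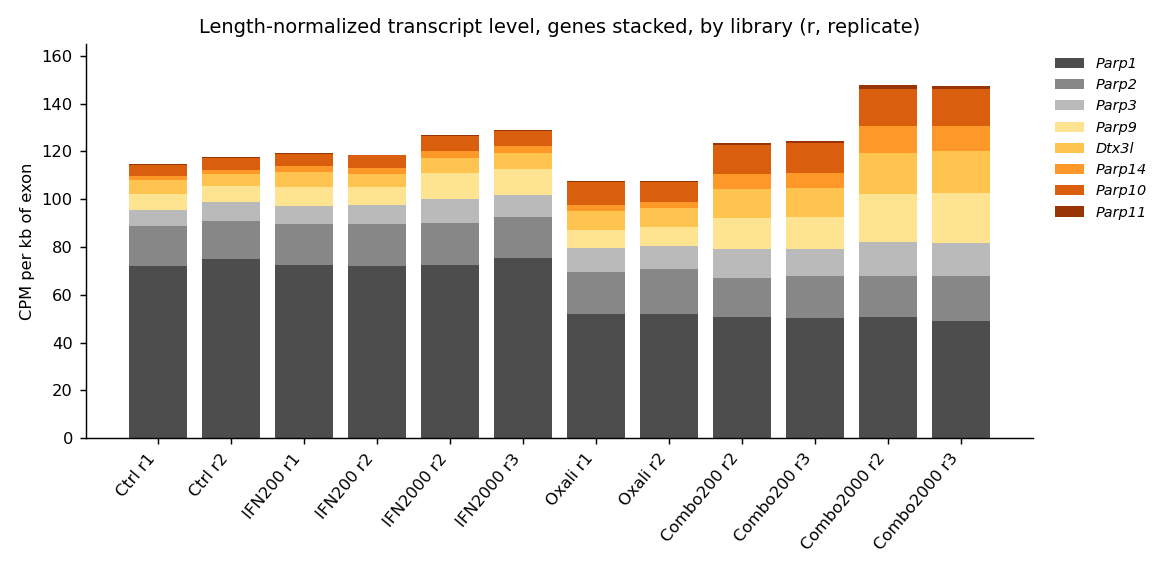
Level of the members in CPM per kilobase of exon, stacked for each of the 12 libraries, with Parp12 (1 count in all) left out. The Parp1 segment takes 62.8% and 63.9% of the bar in Ctrl and 34.3% and 33.4% in Combo2000, where the interferon genes (yellow to brown) take 44.5% and 44.4%.

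Parp14, Parp9 and Dtx3l lie together on chromosome 16 (Parp9 at chr16:35938470-35972605, plus strand, and Dtx3l at chr16:35926511-35939151, minus strand). The start of Parp14 is 67.6 kb from that of Dtx3l. Within 200 kb of the Dtx3l start the annotation holds 17 genes, of which 9 were tested and 6 are not members. In Combo2000 against Ctrl, Wdr5b rose by 1.28 on the log2 scale and Hspbap1 by 0.80, while Gm15564 fell by 1.10, Fam162a by 0.83, Kpna1 by 0.75 and Ccdc58 by 0.33. In Oxali alone Wdr5b rose by 1.40 and Hspbap1 by 0.76, and Kpna1 fell by 0.69. Gm15564, an antisense gene that overlaps the body of Parp9 but none of its exons, had 0.23 in Oxali alone (SE 0.37) and an interaction at 2000 pg of -1.03 (SE 0.54), neither called. At 2000 pg the interaction was called for few of the 13177 genes, 280 higher and 79 lower. None of the 6 neighbours had a called interaction there, where the 3 members in between had 0.70 to 1.19. The value nearest to a call was -0.30 for Ccdc58 (adjusted p 0.0795).

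**Figure D5:**
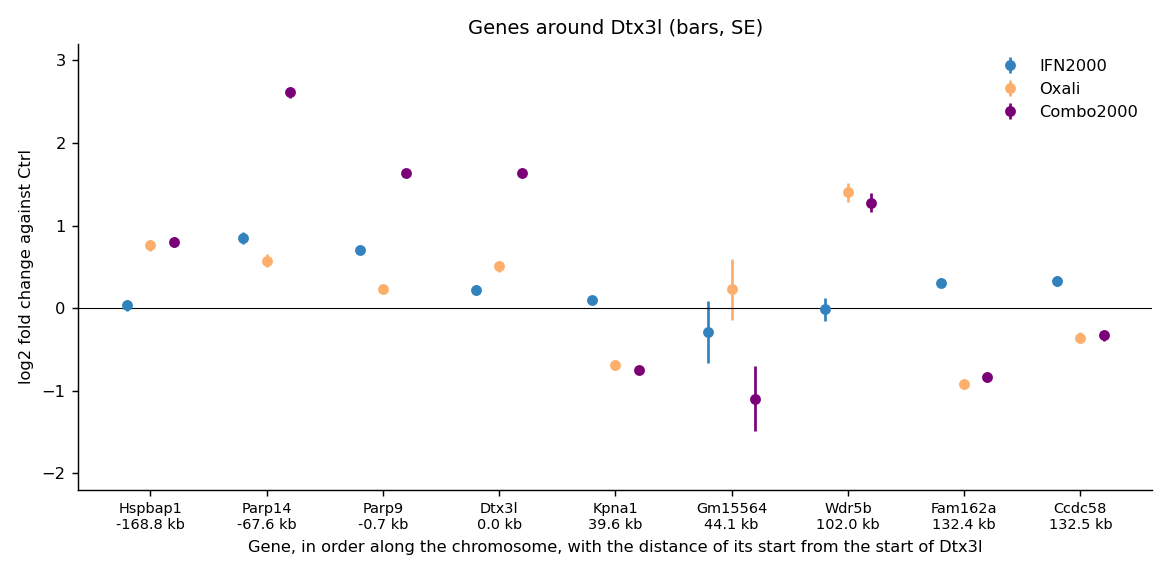
log2 fold change against Ctrl (SE bars) for the 9 tested genes within 200 kb of the start of Dtx3l, in chromosomal order, in IFN2000, Oxali and Combo2000. Combo2000 stands clear of Oxali and IFN2000 for Parp14, Parp9 and Dtx3l, whereas for Hspbap1, Kpna1, Wdr5b, Fam162a and Ccdc58 it lies beside Oxali, and for Gm15564 it lies at -1.10, below Oxali at 0.23.

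The genes whose pattern over the 12 libraries was most like that of a member were ranked by Pearson correlation of log2 CPM among 13169 genes, as a description over libraries that fall into the same 6 groups. For Parp14 these were Idnk (r = 0.989), C1s1 (0.989) and H2-K1 (0.985). C1s1 was at 0.028 CPM in Ctrl and 0.088 in IFN200, under the limit of 3 counts, and reached 16.7 in Combo2000. It exchanged ranks with H2-K1 when the prior count was 0.5. Idnk went from 9.35 CPM in Ctrl to 33.1 in Combo2000 and H2-K1, an MHC class I gene, from 87.1 to 251. For Dtx3l they were B2m (0.993), the light chain of MHC class I, Snx10 (0.989) and Tlr3 (0.987), a sensor of double-stranded RNA. B2m had 721 CPM in Ctrl, 793 in IFN2000, 894 in Oxali and 1662 in Combo2000. For Parp1 they were Eif4g1 (0.998), a translation initiation factor, Xpot (0.998) and Gtf3c4 (0.998). Eif4g1 had 1814 CPM in Ctrl, 882 in Oxali and 857 in Combo2000.

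Other genes of the pathway were read as lists. Of 8 further PARP genes, all tested, 4 were called higher and 1 lower in Combo2000 against Ctrl, where 35.7% of all genes were called higher and 33.5% lower, with a median log2 fold change of 0.32 beside 0.02 over all genes. Parp8 rose by 1.37 (SE 0.07), Parp4, the vault PARP, by 0.81 (SE 0.08), and Tiparp by 0.52 (SE 0.05). All 3 were also called higher in Oxali alone, by 1.21, 0.67 and 0.47. At 2000 pg, 2 of the 8 had an interaction called higher, as did 2.12% of all genes: Tnks, a tankyrase, at 0.32 (edgeR adjusted p 0.048) and Zc3hav1, the catalytically inactive antiviral PARP13, at 0.25 (edgeR adjusted p 0.011). Zc3hav1 had fallen by 0.25 in Oxali and stood at -0.01 in Combo2000 against Ctrl, which was not called. Tnks fell by 0.28 in IFN2000 (SE 0.06, edgeR adjusted p 3.9e-03) and rose by 0.45 in Oxali and 0.48 in Combo2000. Without IFN2000 library 2 its fall there was 0.17 and its interaction 0.20, neither called (adjusted p 0.0869 and 0.234), while the interaction of Zc3hav1 was 0.23 (adjusted p 0.0462).

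Of 7 enzymes that remove ADP-ribose, 6 were tested, and in Combo2000 3 were called lower and 0 higher, beside 33.5% and 35.7% of all genes. Adprh, which cleaves ADP-ribose from arginine, fell by 1.77 (SE 0.06, edgeR adjusted p 5.8e-15), Oard1 by 0.31 (SE 0.08) and Parg, which degrades the chains, by 0.27 (SE 0.05). None of the 6 had a called interaction at either dose, where 0.562% (200 pg) and 2.12% (2000 pg) of all genes were called higher. Among the 9 partners of PARP1 and PARP2 at strand breaks, 5 were called higher and 4 lower in Combo2000, and the counts were the same in Oxali, where 34.8% of all genes were called higher and 32.8% lower. Chd1l, a remodeller recruited by ADP-ribose chains, fell by 1.10 (SE 0.04), the ligase Lig3 by 1.00 (SE 0.04), and the chain-binding factor Aplf rose by 0.69 (SE 0.09). Again none of the 9 had a called interaction, beside the same small shares of all genes.

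Of the deltex genes apart from Dtx3l, 3 of 4 were tested. Dtx3 rose by 0.57 (SE 0.06) and Dtx4 by 0.19 (SE 0.04) in Combo2000, and Dtx2, at 0.01, was not called. Of 9 genes of NAD+ synthesis 7 were tested, and 2 were called higher and 2 lower in Combo2000, again beside 35.7% and 33.5% of all genes, led by Nmrk1 at 1.03 (SE 0.11), Naprt at -0.95 (SE 0.38) and Nmnat1 at -0.59 (SE 0.09). Of the IRF genes, Irf7 rose by 3.72 (SE 0.19) and Irf1 by 3.54 (SE 0.05) in Combo2000. Irf1 also had called interactions of 0.88 at 2000 pg and 1.17 at 200 pg.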

How the data were processed

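Poly(A) RNA of 12 Myc-CaP libraries was sequenced from a stranded kit. The table deposited by the authors holds unnormalized read counts for each gene symbol, and its 12 count columns were all used. The study describes alignment by STAR to GRCm38 and counting of GENCODE genes by featureCounts. The submitters' processing notes name STAR 2.7.3a and RSEM 1.3.0. The strand setting is not given in the sources used here. Coordinates and exon lengths came from GENCODE vM21 on the same build.

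The edgeR 4.0.16 quasi-likelihood test (R 4.3.3) was run on TMM-scaled counts after filterByExpr (minimum count 10, minimum total 15). The model held the 6 group means, no covariate and all 12 libraries (6 residual degrees of freedom). Calls were made below 0.05 after Benjamini-Hochberg adjustment over 13177 genes. Dividing a log2 fold change by the square root of its F statistic gave the SE. Scripts were tested on simulated counts. Alternatives were RLE and upper-quartile scaling, no filter, a mean of at least 50 counts, DESeq2 1.42.0, a replicate block, a length correction, only the groups compared, each library left out, plain library totals and, for the pattern correlations, a prior count of 0.5 in place of 2. Leaving IFN2000 library 2 out of the whole fit was chosen after seeing the data.

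The members, the lists, the markers and the named genes (members, up to 3 per list by size of change among called genes, the 3 closest patterns of Parp14, Dtx3l and Parp1, and tested genes within 200 kb of Dtx3l) were chosen with earlier results of these data known. Tnks, Zc3hav1, Dtx2 and Kdm7a fall outside these rules and were named after their values were seen. Some marker and list results are not reported here.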

Additional observations from a re-analysis of the deposited data

Results flagged for a closer look

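The following values were picked out because the effect of IFNγ differed with and without Oxali by the test of that difference, the log2 interaction. At 2000 pg the interaction was 1.22 for Parp11, 1.19 for Parp14, 0.92 for Dtx3l, 0.70 for Parp9 and 0.38 for Parp10. At 200 pg it was 0.75 for Parp14, 0.57 for Parp9, 0.47 for Dtx3l and 0.42 for Parp10. With 2 libraries per group, no single library could be tested as standing apart from its group.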

How the results depend on the processing

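Followed here were 116 log2 values of single members: all against Ctrl, all interactions and, in other comparisons, only those called. For them 1688 alternative values were computed. In comparisons that use IFN2000, the removal of its library 2 entered under 2 of the alternatives. Of the 1688, 1621 kept their direction and their side of the threshold, and 67 did not. Of the 116, 12 changed call and 7 changed sign under at least 1 alternative, and each of the 7 was uncalled at the start. The number of members called in IFN200 against Ctrl was 1 and ran from 0 to 1 when a library was left out, with 0 without Ctrl replicate 2 or IFN200 replicate 1. The number with a called interaction at 200 pg was 4 and ran from 2 to 4, with 2 without Ctrl replicate 1, and at 2000 pg it was 5 and ran from 3 to 5, with 3 without either Ctrl replicate. Fewer libraries enter these fits. No other count of members called moved by more than 1.5 times under the alternatives run.

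Values that changed sign when a library was left out were those of Parp1 in IFN200 (-0.058 to 0.0054), in IFN2000 (-0.016 to 0.039) and in the interaction at 200 pg (-0.046 to 0.0096). The others were Parp2 in Combo200 (-0.0012 to 0.071) and Parp3 in IFN200 (-0.016 to 0.25) and in the interactions at 200 pg (-0.0089 to 0.25) and 2000 pg (-0.028 to 0.23). Same-numbered libraries did not deviate together (correlations from -0.046 to 0.045), so the replicate numbers were not taken as pairs. With the replicate number as a block, Parp1 in IFN2000 changed to -0.0034, and with the block and a length correction Parp2 in Combo200 changed to -0.018. The block ended the calls of Parp2 in Combo2000 (0.09), Dtx3l in IFN2000 (0.24), Parp11 in Combo200 against Oxali (0.68) and Parp10 in both interactions (0.44 and 0.38). The cause was not tested.

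Over all genes, the count called moved by more than 1.5 times in IFN200 (15, 102 with no filter, 5 without Ctrl replicate 1, and 4 without Ctrl replicate 2 or IFN200 replicate 1), IFN2000 (2221, 1071 with the replicate block and 851 without IFN2000 replicate 2), the interaction at 200 pg (92, 262 with no filter and 48 with the block) and at 2000 pg (359, 785 with no filter, 217 with DESeq2, 202 without IFN2000 replicate 2, and from 131 without Ctrl replicate 1 to 1029 without IFN2000 replicate 3). It also moved in Combo200 against Oxali (241, 372 with no filter and 142 with the block), Combo2000 against Oxali (574, 373 with DESeq2 and 331 with the block), IFN2000 against IFN200 (2943, 1190 without IFN2000 replicate 2) and Combo2000 against Combo200 (181, 118 without Combo200 replicate 3). The values in brackets are not the full range. In IFN2000 the count was lower still without Ctrl replicate 1. It was also lower still in the interaction at 200 pg and in Combo200 against Oxali without Combo200 replicate 3. Depth limited Parp12, at 1 count, and Parp11, whose 35 to 38 counts in Ctrl gave the widest intervals among the members.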
